A study of Homo sapiens with 12 samples.

Results

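The lysyl oxidases LOX, LOXL1, LOXL2, LOXL3 and LOXL4, together with SPARC and CTHRC1, make up a group of 7 secreted proteins that act on the extracellular matrix, out of 35984 genes in the count table. LOX, SPARC and CTHRC1 were chosen for their changes in an earlier account of these data, and their values are therefore given as a description with no test. The 4 LOX-like genes were chosen by family name. After a filter on low counts 6 of the 7 members were among 16118 tested genes, and LOXL1 was not.

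The study sequenced RNA from HepG2, an established human hepatoma cell line, in 12 libraries. Control cells (CTL) stably carried control shRNAs, and double knock-down cells (DKD) stably carried shRNAs against the macroH2A1 and macroH2A2 transcripts, which encode histone H2A variants with a large extra domain. The shRNA cassettes were brought in by retroviral transduction. After a night in low serum, each line received the inflammatory cytokine TNFα (20 ng/mL, 24 hours) or the same volume of its vehicle (untreated), with 3 libraries in each of the 4 groups. Whether the 3 libraries in a group were separate cultures is not said in the labels. The p-values therefore reflect library-to-library spread alone, and part or all of it may be technical. The labels also do not say whether each line was one pool of transduced cells, so a difference between these lines and an effect of the knock-down cannot be told apart.

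Lysyl oxidases are copper-dependent enzymes that oxidise lysine residues of collagen and elastin, the first step of the cross-links that stiffen a matrix. SPARC is a calcium- and collagen-binding matricellular protein, and CTHRC1 is a secreted protein with a short collagen repeat that is known for its part in matrix remodelling and in noncanonical Wnt signalling. In liver these genes are best known from fibrosis, where activated stellate cells produce much of the matrix.

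Levels are given in CPM, counts scaled to the library's TMM-adjusted total. Library totals were 30955080 counts in CTL untreated library 2 and 37780825 to 42094144 in the other libraries, so 1 count was worth 0.0238 to 0.0320 CPM. MACROH2A1 stood at 236 ± 27.4 CPM in untreated control and 46.2 ± 12.2 in untreated knock-down cells (SD, n = 3), and MACROH2A2 at 57.8 ± 2.85 and 5.11 ± 0.79. All 7 hepatocyte markers were at 1 CPM or more in every library, with sums of 19630 to 21570 CPM in untreated control and 24590 to 37430 in untreated knock-down cells. Of 9 fibroblast and stellate cell markers, 8 were under 1 CPM in every library, THY1 among them at 0. ACTA2, the exception, ran from 22.8 to 47.2 CPM, and the sum of the list was 25.2 to 28.1 in untreated control, 24.0 to 29.2 in TNFα-treated control, 27.8 to 34.7 in untreated knock-down and 33.8 to 47.8 in TNFα-treated knock-down cells. The 2 knock-down libraries numbered 1 stood apart on the first principal component (33.0% of the variance), at -83.7 and -53.9, while the other libraries lay between -18.2 and 41.5.

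LOX, which encodes the family's founding enzyme, was higher in knock-down than in control cells and lower with TNFα in both lines. The gene lies on chromosome 5, 122063195 to 122078360, minus strand (GRCh38, GENCODE v29). In untreated control cells its level was 15.3, 21.0 and 16.5 CPM in libraries 1, 2 and 3, and with TNFα it was 6.05, 8.09 and 6.17 CPM. Untreated knock-down cells held 59.6, 69.7 and 48.2 CPM, and TNFα-treated knock-down cells 27.2, 42.4 and 26.6 CPM. Every knock-down library was above every control library of either treatment, and within each line no treated library reached an untreated one. Without TNFα, the level was 3.37-fold higher in the knock-down line (log2 fold change 1.75, SE 0.22), and with TNFα 4.73-fold higher (2.24, SE 0.23). With TNFα it was 2.59-fold lower in control cells (log2 fold change -1.38, SE 0.22) and 1.85-fold lower in knock-down cells (-0.89, SE 0.21). The log2 fold change with TNFα was thus less negative in knock-down cells, with a difference of 0.49 (SE 0.30). With the replicate number as a block, the changes with TNFα were -1.38 (SE 0.10) in control and -0.90 (SE 0.09) in knock-down cells. In pairs 1, 2 and 3 the change was -1.33, -1.37 and -1.41 in control cells, and -1.13, -0.72 and -0.86 in knock-down cells. LOX shares 138 of its 5547 exon bases with SRFBP1 on the opposite strand, which held 555 to 883 counts per library. The strand setting of the counting is not given in the sources used here. The part of SRFBP1 in the LOX values was not tested.

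**Figure D1:**
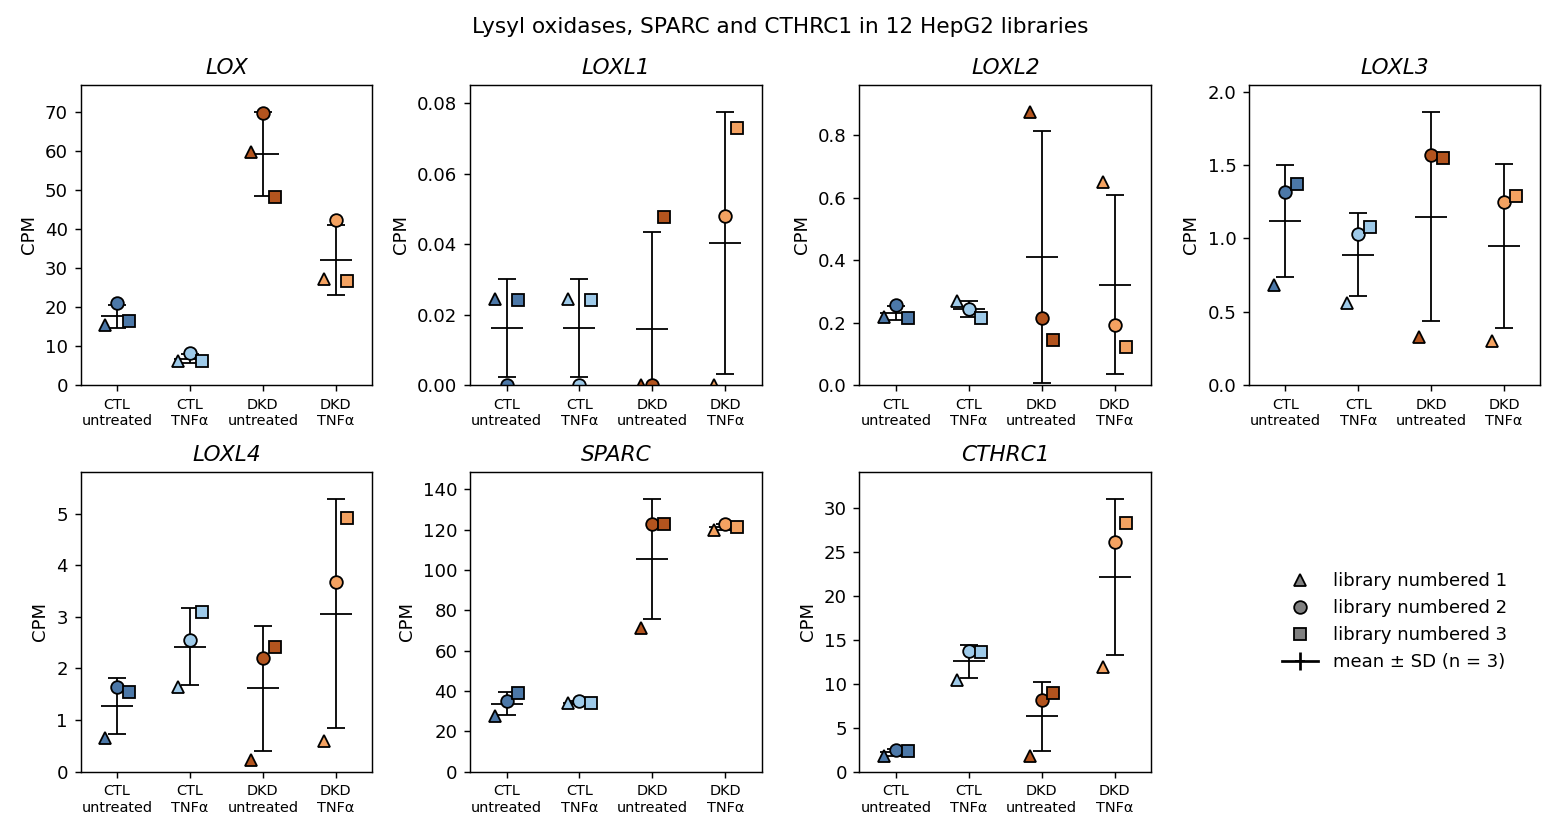
Level of each of the 7 members in CPM (linear axis from 0, scaled per gene) in the 4 groups, with 1 point per library and the group mean ± SD (n = 3). LOX and SPARC separated the lines in every library, CTHRC1 separated treated from untreated libraries within each line, and the LOX-like genes overlapped between groups.

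The sequences just upstream of LOX and LOXL4 are shown because LOX had the clearest pattern over both factors and LOXL4 was higher with TNFα in every equal-number pair. They come from RefSeq windows of 250 bases before an annotated start site (GRCh38.p14), written 5′ to 3′ on the gene's strand (minus for both). Bases that a GENCODE exon of the same gene covers are left out. Capitals mark matches to a GC box (GGGCGG), the core of the hypoxia response element (ACGTG) or the NF-kB consensus on either strand, and TATAAA and the AP-1 motif TGANTCA were searched as well. Motifs may overlap each other.
LOX chr5:122078361-122078509: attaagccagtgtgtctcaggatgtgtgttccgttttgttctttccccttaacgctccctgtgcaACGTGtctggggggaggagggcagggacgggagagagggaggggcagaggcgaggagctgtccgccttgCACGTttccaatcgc
LOXL4 chr10:98268251-98268444: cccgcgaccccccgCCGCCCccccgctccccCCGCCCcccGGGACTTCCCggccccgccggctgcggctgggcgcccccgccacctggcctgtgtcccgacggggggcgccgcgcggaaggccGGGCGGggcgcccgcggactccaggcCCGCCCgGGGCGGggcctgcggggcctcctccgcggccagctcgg
The whole LOX window of 250 bases held 4 matches to ACGTG, of which 2 lie in the bases shown, and 1 GC box closer to the start site. Of 34943 RefSeq promoter windows of this length 18.5% held at least 1 ACGTG and 0.667% held at least 4. The LOXL4 window held 6 GC boxes (5 in the bases shown). At least 1 GC box occurred in 42.5% of windows, and the share with 6 was not counted. The LOXL4 window also held the stretch GGGACTTCCC, at positions -210 to -201 relative to the start site, that matches NF-kB on both strands. An NF-kB match occurred in 9.95% of windows. These shares are over all windows, and windows of like GC content were not compared. The GC content was 55.2% for LOX and 86.4% for LOXL4, where the median window had 58.0%. TATAAA (10.8% of windows) and TGANTCA (6.59%) were found in neither, and the SPARC window, which lies in a GENCODE exon of SPARC and is not printed, held none of these 5 motifs. Each match is a description of letters, not a binding site, and the missing letters say nothing of the factors. LOX has 2 further RefSeq start sites, whose overlapping windows each held 1 ACGTG and 0 GC boxes and are not shown.

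LOXL4, a LOX-like enzyme with scavenger receptor domains, had a low level that was higher with TNFα in all 6 pairs of libraries with equal number and line, but did not pass the test in any contrast. It lies on chromosome 10, 98247690 to 98268250, minus strand. Untreated control libraries held 0.656, 1.63 and 1.54 CPM, and TNFα-treated control libraries 1.63, 2.54 and 3.10. Untreated knock-down libraries held 0.219, 2.21 and 2.41 CPM, and TNFα-treated ones 0.599, 3.68 and 4.91. Library 1 was the lowest of its group in all 4 groups, and in each contrast the groups overlapped, though only just for TNFα in control cells. In knock-down cells it rested on only 8 and 24 counts, against 93 to 202 in libraries 2 and 3. The log2 fold change with TNFα was 0.93 (SE 0.80, edgeR adjusted p = 0.714) in control cells and 0.92 (SE 0.79, edgeR adjusted p = 0.869) in knock-down cells. Leaving out 1 library moved the value in control cells to between 0.61 (without CTL untreated library 1) and 1.13 (without CTL TNFα library 1). In knock-down cells it went to 0.40 without DKD untreated library 1, 0.38 without DKD TNFα library 3 and 1.40 without DKD TNFα library 1. With the replicate number as a block the edgeR adjusted p was 0.165 and 0.253. From libraries 2 and 3 alone the log2 fold changes were 0.83 (SE 0.21, edgeR adjusted p = 0.0362) and 0.89 (SE 0.20, edgeR adjusted p = 0.0338), which passed the threshold of 0.05. That fit keeps 2 libraries per group and leaves out the lowest library of each. Without only the 2 knock-down libraries numbered 1, the edgeR adjusted p was 0.13 in control and 0.315 in knock-down cells. The knock-down difference was 0.35 without TNFα (SE 0.80, edgeR adjusted p = 0.888) and 0.34 with it (SE 0.78, edgeR adjusted p = 0.904). Its sign differed between pairs, at -1.40, 0.43 and 0.63 on the log2 scale without TNFα in pairs 1, 2 and 3.

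LOXL3, the relative closest in domain layout to LOXL2 and LOXL4, was near 1 CPM and did not pass the test in any contrast. It lies on chromosome 2, 74532414 to 74555690, minus strand. Its level was 0.681, 1.31 and 1.37 CPM in untreated control libraries and 0.561, 1.03 and 1.08 CPM in treated control libraries. In knock-down cells it was 0.328, 1.57 and 1.55 CPM without TNFα and 0.300, 1.25 and 1.29 with it. Library 1 was again the lowest of each group. The value with TNFα was below that without it in all 6 equal-number pairs, with differences of -0.34 to -0.11 on the log2 scale and fitted log2 fold changes of -0.33 (SE 0.62, edgeR adjusted p = 0.911) and -0.29 (SE 0.61, edgeR adjusted p = 0.976). The knock-down differences were 0.05 (SE 0.61) and 0.09 (SE 0.62), with edgeR adjusted p = 0.982 and 0.970. LOXL3 shares 625 exon bases with HTRA2 on the opposite strand. HTRA2 had 2088 to 4585 counts in the 4 libraries numbered 1 and 1107 to 1762 in the others, opposite to LOXL3. DOK1, which shares 216 exon bases on the opposite strand, had 8 to 17 counts in libraries 1 and 15 to 36 in the others. The part of either gene in the LOXL3 values was not tested.

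LOXL2, which acts on type IV collagen of basement membranes among other substrates, lay close to the floor. It is on chromosome 8, 23297189 to 23425328, minus strand, and shares 120 exon bases with ENTPD4 on the same strand. ENTPD4 held 1817 to 2712 counts per library, and its part in the LOXL2 values was not tested. The libraries held 9, 8 and 9 counts in untreated control, 11, 10 and 9 in treated control, 32, 9 and 6 in untreated knock-down and 26, 8 and 5 in treated knock-down cells. Both knock-down libraries numbered 1 were therefore above all others, and libraries 2 and 3 of the knock-down were at or below the control level. The log2 fold change for the knock-down was 0.81 without TNFα (SE 0.72, edgeR adjusted p = 0.654) and 0.39 with it (SE 0.72, edgeR adjusted p = 0.872). Without the 2 knock-down libraries numbered 1 these were -0.35 and -0.61, so the sign rested on those libraries. The TNFα changes were 0.08 (SE 0.74, edgeR adjusted p = 0.988) in control and -0.34 (SE 0.69, edgeR adjusted p = 0.976) in knock-down cells.

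LOXL1, the family member tied to elastic fibres, was at or under the floor of 3 counts in every library. It lies on chromosome 15, 73925989 to 73952137, plus strand, and overlaps LOXL1-AS1 on the opposite strand. Its counts were 1, 0 and 1 in untreated control, 1, 0 and 1 in treated control, 0, 0 and 2 in untreated knock-down, and 0, 2 and 3 in treated knock-down cells. A level of up to 0.0713 to 0.0961 CPM, depending on the library, is allowed by a count of 0, and no fold is given.

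None of the 3 tested LOX-like genes was called in any of the 5 contrasts at an edgeR adjusted p under 0.05. Over all 16118 genes the share called with TNFα was 1.9% higher and 0.726% lower in control cells, and 1.54% higher and 0.254% lower in knock-down cells. For the knock-down it was 3.13% higher and 1.86% lower without TNFα, and 3.94% higher and 2.3% lower with it. With the replicate block, which treats libraries of equal number as pairs, these shares were 7.94% and 4.7%, then 5.55% and 2.13%, for TNFα. For the knock-down they were 9.17% and 7.31%, then 10.6% and 8.79%. The block called none of the 3 genes either. In the contrast of the TNFα changes between the lines edgeR called 0 genes higher and 0 lower, which is 0% in each direction. There 184 genes had an unadjusted p under 0.05 (556 with the block) and DESeq2 called 5. TNFα in control cells and the knock-down without TNFα share the untreated control libraries, so the members' values in these 2 contrasts are not independent.

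**Figure D2:**
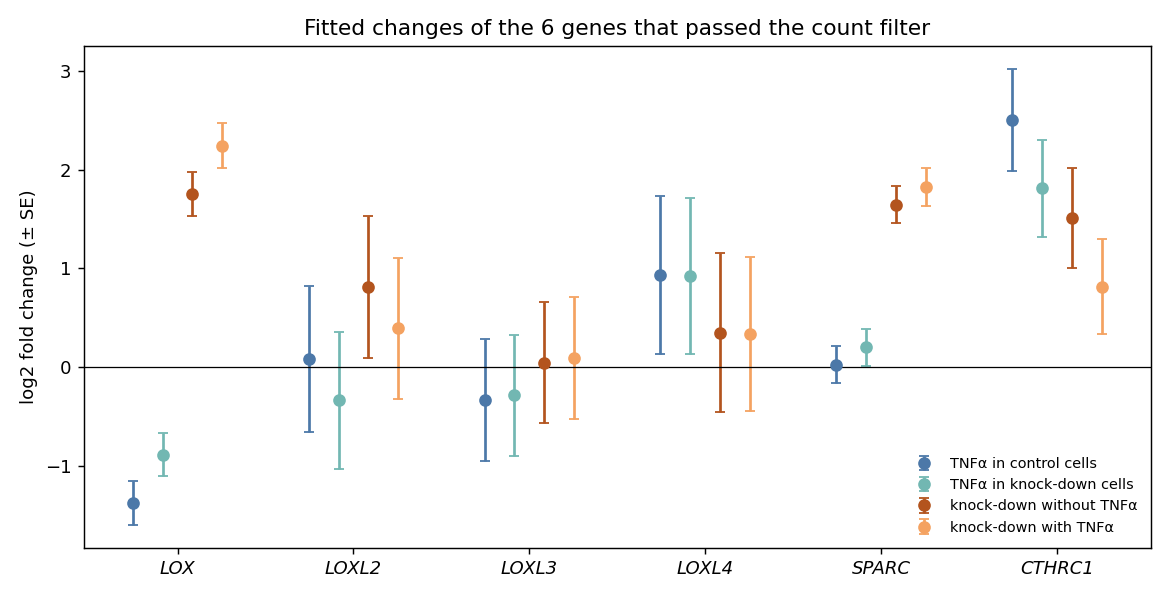
Log2 fold change of each tested member in the 4 contrasts of 2 groups, with bars of 1 SE derived from the edgeR test. LOX lay below 0 with TNFα and above 0 with the knock-down, SPARC was near 0 with TNFα, and the bars of LOXL3 crossed 0 in all 4.

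SPARC was higher in knock-down cells and close to level with TNFα. The gene is on chromosome 5, 151661096 to 151687165, minus strand, and shares 381 exon bases with the noncoding CLMAT3. Control libraries held 27.6, 34.8 and 38.9 CPM without TNFα and 33.8, 35.1 and 34.0 CPM with it. Untreated knock-down libraries held 71.3, 122.7 and 122.6 CPM, and treated ones 119.7, 122.8 and 121.5. Every knock-down library was above every control library, and among the 6 knock-down libraries only the untreated library 1 was away from about 120 CPM. Without TNFα the level was 3.13-fold higher in the knock-down line (log2 fold change 1.65, SE 0.19), and with it 3.54-fold higher (1.82, SE 0.19). The log2 fold change with TNFα was 0.02 (SE 0.19) in control and 0.20 (SE 0.19) in knock-down cells, and neither kept its sign. The first was -0.11 without CTL untreated library 1 and -0.10 from libraries 2 and 3 alone, and the second was -0.03 without DKD untreated library 1 and -0.01 without both knock-down libraries numbered 1.

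CTHRC1 was higher with TNFα in both lines, while its difference between the lines varied with the library. It lies on chromosome 8, 103371515 to 103382997, plus strand. Control libraries held 1.80, 2.50 and 2.38 CPM without TNFα and 10.4, 13.7 and 13.6 CPM with it. Knock-down libraries held 1.78, 8.16 and 8.99 CPM without TNFα and 11.99, 26.2 and 28.4 CPM with it. No treated library overlapped the untreated libraries of its line. Between the lines libraries 2 and 3 of the knock-down were above all control libraries of the same treatment, whereas library 1 was at the control level. With TNFα the level was 5.67-fold higher in control cells (log2 fold change 2.50, SE 0.52) and 3.51-fold higher in the knock-down (1.81, SE 0.49). The difference of these changes was -0.69 (SE 0.69). In pairs 1, 2 and 3 the log2 change was 2.504, 2.435 and 2.496 in control cells, and 2.721, 1.677 and 1.653 in knock-down cells. It was thus smaller in knock-down cells in pairs 2 and 3 but not in pair 1. With the replicate number as a block, the changes with TNFα were 2.53 (SE 0.325) in control and 1.88 (SE 0.295) in knock-down cells. For the knock-down the level was 2.84-fold higher in untreated cells (log2 fold change 1.51, SE 0.51) and 1.76-fold higher with it (0.82, SE 0.48). Without the 2 knock-down libraries numbered 1 these log2 fold changes were 1.95 (SE 0.17) and 1.12 (SE 0.16).

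**Figure D3:**
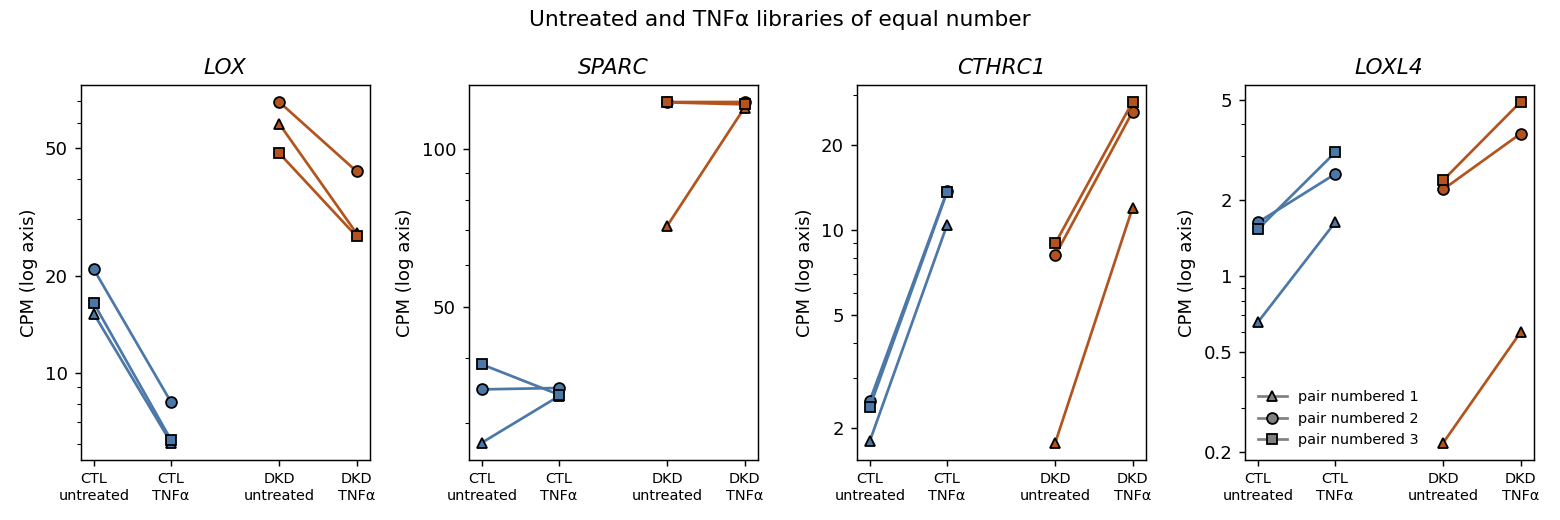
CPM (log axis) of LOX, SPARC, CTHRC1 and LOXL4 in untreated and TNFα libraries, with a line joining libraries of equal number. All 6 LOX lines go down and all 6 CTHRC1 and LOXL4 lines go up, and the knock-down pair numbered 1 lies below the other knock-down pairs for CTHRC1 and LOXL4.

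The deviation of library 1 differed by member. In untreated knock-down cells, library 1 minus the mean of libraries 2 and 3 was -3.13 on the log2 scale for LOXL4, -2.24 for CTHRC1, -2.09 for LOXL3 and 2.03 for LOXL2. The median absolute deviation over genes tested was 0.41, and these 4 members were at or above the 96.9th percentile of the absolute deviations. Percentiles here are over tested genes of any level, and genes of like count were not compared. LOXL4, LOXL3 and LOXL2 held only 8, 12 and 32 counts in library 1 of untreated knock-down cells. LOX deviated by 0.04 and SPARC by -0.78 there. With TNFα these deviations had the same signs and a different order, with -2.73 for LOXL4, -1.92 for LOXL3, 1.78 for LOXL2 and -1.18 for CTHRC1, against a median of 0.30, and CTHRC1 was at the 93.3rd percentile. In control cells LOXL4 (-1.21 untreated, -0.76 with TNFα) and LOXL3 (-0.93 and -0.85) were also low in library 1, while LOXL2 (-0.09 and 0.19) was not far from the others.

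**Figure D4:**
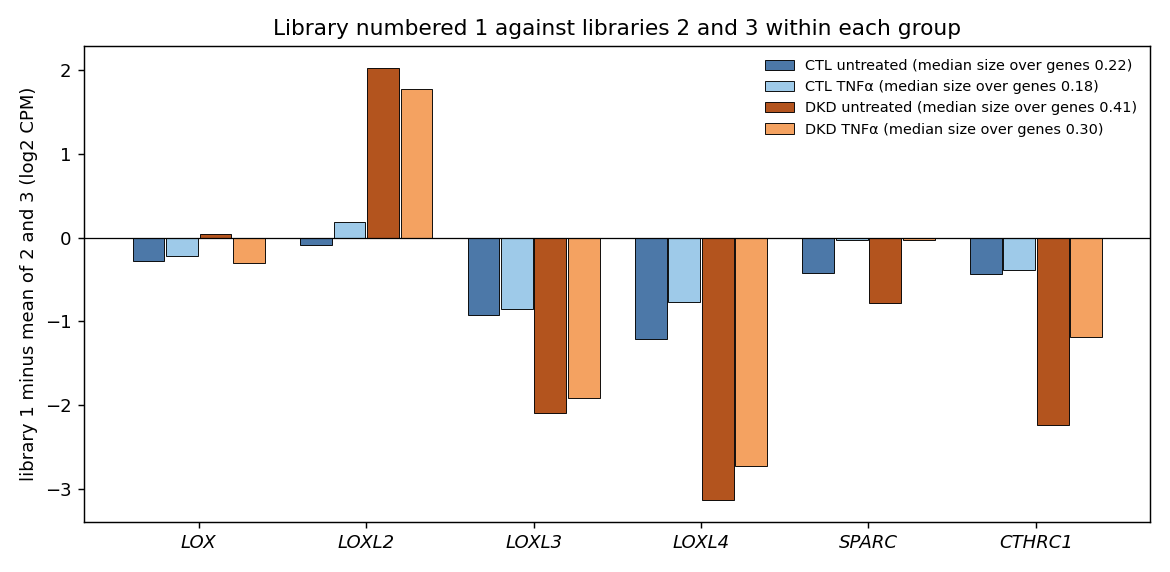
Log2 level of library 1 minus the mean of libraries 2 and 3 for the 6 tested members, 1 bar per group, with the median absolute deviation over genes tested in the key. LOXL4 and LOXL3 were below 0 in all 4 groups, and the knock-down groups show the widest deviations, while LOX stayed within about 0.31 of 0.

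Scaled to length, as CPM per kilobase of merged exons, the members stood in the order SPARC (6.99 ± 1.19), LOX (3.17 ± 0.54), CTHRC1 (1.25 ± 0.21), LOXL4 (0.349 ± 0.147), LOXL3 (0.257 ± 0.088), LOXL2 (0.0404 ± 0.0040) and LOXL1 (0.0044 ± 0.0038) in untreated control cells (SD, n = 3). LOXL4 and LOXL3 did not differ beyond their spread, whereas the other neighbours in this order did not overlap. With TNFα, SPARC (7.10 ± 0.14) and CTHRC1 (7.10 ± 1.06) led control cells together, and LOX followed at 1.22 ± 0.21. In untreated knock-down cells the order was SPARC (21.8 ± 6.13), LOX (10.7 ± 1.93) and CTHRC1 (3.55 ± 2.22). In treated knock-down cells SPARC (25.1 ± 0.31) was ahead of CTHRC1 (12.5 ± 5.01) and LOX (5.78 ± 1.61), and the libraries of CTHRC1 and LOX overlapped. Among the 5 lysyl oxidases LOX made up 83.2% ± 4.34 of the summed length-scaled level in untreated control, 57.6% ± 7.30 in treated control, 93.1% ± 4.11 in untreated knock-down and 84.2% ± 9.71 in treated knock-down cells. LOXL4 took 8.91% ± 2.84, 30.8% ± 6.11, 3.92% ± 3.14 and 11.7% ± 8.83 of it.

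Other genes of matrix assembly were taken from 6 lists of 97 genes, of which 65 were tested, and the lists were chosen with earlier results of these data known. In control cells with TNFα, 3 of 65 rose and 1 fell (4.62% and 1.54%), beside 1.9% and 0.726% of all genes, or 13 and 8 with the replicate block, beside 7.94% and 4.7%. In knock-down cells with TNFα, 3 rose and 1 fell (4.62% and 1.54%), beside 1.54% and 0.254% of all genes, or 9 and 5 with the block, beside 5.55% and 2.13%. For the knock-down 4 rose and 3 fell without TNFα (6.15% and 4.62%), beside 3.13% and 1.86% of all genes, or 10 and 11 with the block, beside 9.17% and 7.31%. With TNFα 5 rose and 3 fell (7.69% and 4.62%), beside 3.94% and 2.3% of all genes, or 12 and 11 with the block, beside 10.6% and 8.79%. The shares of all genes given here also stand beside the counts for single lists that follow. The median log2 fold change of the 65 genes was 0.08, 0.09, 0.01 and 0.00 in these 4 contrasts, and that of all genes between -0.01 and 0.01. None of the 65 passed in the contrast of TNFα changes between the lines by edgeR, none had an unadjusted p under 0.05, and DESeq2 called 0.

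**Figure D5:**
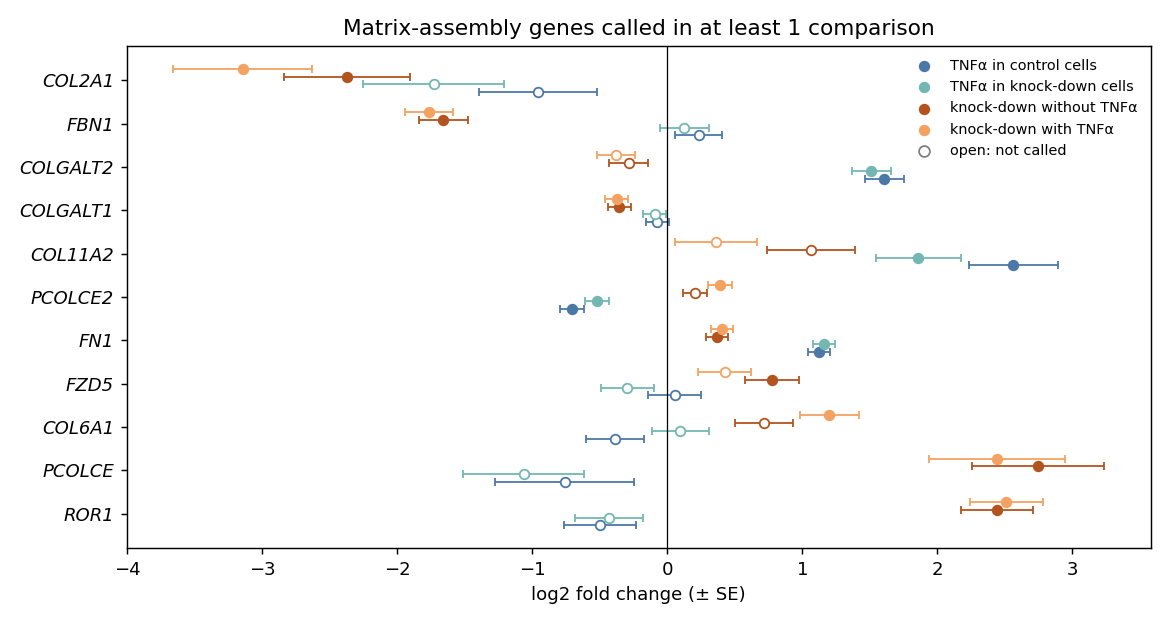
Log2 fold change (± SE, edgeR) of the list genes called in at least 1 of the 4 contrasts of 2 groups, filled where called and open where not. FN1, COLGALT2 and COL11A2 are filled to the right for TNFα in both lines, and for the knock-down ROR1 and PCOLCE are filled to the right and FBN1 and COL2A1 to the left, without and with TNFα.

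Among the collagen-modifying enzymes that act before lysyl oxidases, 17 of 19 were tested, 1 rose with TNFα in each line, and 1 fell with the knock-down in each treatment. With the block 4 rose and 1 fell with TNFα in control cells, and 4 rose and 0 fell in knock-down cells. For the knock-down it called 1 higher and 5 lower without TNFα, and 0 higher and 5 lower with it. COLGALT2, a collagen galactosyltransferase, rose from 24.1 ± 1.86 to 73.4 ± 6.57 CPM in control cells (log2 fold change 1.61, SE 0.14, edgeR adjusted p = 0.000256). In knock-down cells it rose from 19.8 ± 2.82 to 56.3 ± 8.86 CPM (log2 fold change 1.51, edgeR adjusted p = 0.000367). The related COLGALT1 fell with the knock-down, with a log2 fold change of -0.36 without TNFα (SE 0.09, edgeR adjusted p = 0.0357) and -0.37 with it (SE 0.09, edgeR adjusted p = 0.0243). Its call was lost without any 1 of 10 libraries in the first case (highest adjusted p = 0.134) and without any 1 of 7 in the second (0.0986).

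In the list of pro-LOX proteases, procollagen C-proteinase enhancers, matrix scaffolds and copper carriers, 9 of 11 genes were tested. With TNFα 1 rose and 1 fell in each line (1 and 3 in control and 1 and 2 in knock-down cells with the block). With the knock-down 2 rose and 0 fell without TNFα and 3 rose and 0 fell with it (2 and 0, and 5 and 0, with the block). All calls in this list without the block were of FN1, PCOLCE or PCOLCE2. None of the tested proteases (BMP1, TLL2) or copper carriers (ATP7A, ATP7B, ATOX1, SLC31A1) was called without the block. FN1, which encodes fibronectin, a scaffold for pro-LOX processing, rose with TNFα from 3856 ± 407 to 8416 ± 227 CPM in control cells (log2 fold change 1.13, SE 0.08, edgeR adjusted p = 6.96e-05) and from 4974 ± 442 to 11130 ± 309 in knock-down cells (1.16, edgeR adjusted p = 7.11e-05). Its rise with the knock-down was smaller, by 0.37 (edgeR adjusted p = 0.0239) and 0.40 (0.0127), and it was lost without any 1 of 4 libraries (highest adjusted p = 0.113) and of 3 (0.0569). PCOLCE, an enhancer of procollagen C-proteinase, rose from 0.610 ± 0.198 in untreated control to 4.08 ± 1.71 CPM in untreated knock-down libraries (log2 fold change 2.75, SE 0.49, edgeR adjusted p = 0.00764). With TNFα it was 0.357 ± 0.149 in control and 1.95 ± 0.890 in knock-down cells (2.44, SE 0.50, edgeR adjusted p = 0.0145), a call lost without any 1 of 3 libraries (highest adjusted p = 0.0732). PCOLCE2, a second enhancer, fell with TNFα, by a log2 fold change of -0.71 in control cells (SE 0.09, edgeR adjusted p = 0.00194) and -0.52 in knock-down cells (edgeR adjusted p = 0.0126), the second lost without any 1 of 3 libraries (highest adjusted p = 0.0644). Its rise with the knock-down and TNFα, 0.39 (edgeR adjusted p = 0.0259), was lost without any 1 of 5 libraries (highest adjusted p = 0.11).

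Among the collagen chains, a class that includes substrates of the lysyl oxidases, 10 of 23 were tested. With TNFα 1 rose and 0 fell in each line (3 and 1 in control and 2 and 0 in knock-down cells with the block). With the knock-down 0 rose and 1 fell without TNFα and 1 rose and 1 fell with it (3 and 1 in both with the block). COL11A2, a chain of type XI collagen, rose with TNFα from 1.10 ± 0.0889 to 6.51 ± 0.570 CPM in control cells (log2 fold change 2.56, SE 0.33, edgeR adjusted p = 0.00215). In knock-down cells it rose from 2.31 ± 1.25 to 8.36 ± 1.79 CPM (1.86, edgeR adjusted p = 0.0125), a call lost without either of 2 libraries (highest adjusted p = 0.0676, without DKD untreated library 3, and also without DKD TNFα library 3). COL2A1, the chain of type II collagen, fell from 3.70 ± 0.463 in untreated control to 0.705 ± 0.474 CPM in untreated knock-down libraries (log2 fold change -2.37, SE 0.47, edgeR adjusted p = 0.013), a call lost without CTL untreated library 2 (adjusted p = 0.0525). With TNFα it was 1.90 ± 0.0519 in control and 0.212 ± 0.0591 in knock-down cells (-3.15, edgeR adjusted p = 0.00388). COL6A1 rose with the knock-down in the presence of TNFα, from 1.19 ± 0.189 to 2.74 ± 0.210 CPM (1.20, SE 0.22, edgeR adjusted p = 0.00683).

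Of 14 elastic fibre genes 9 were tested. With TNFα 0 were called in either line, also with the block, and 1 fell with the knock-down in each treatment (3 without and 2 with TNFα with the block). FBN1, which encodes the microfibril protein fibrillin-1, fell from 21.6 ± 1.10 in untreated control to 6.84 ± 1.41 CPM in untreated knock-down libraries (log2 fold change -1.66, SE 0.18, edgeR adjusted p = 0.000494) and from 25.4 ± 0.875 to 7.47 ± 1.73 with it (-1.77, edgeR adjusted p = 0.000254). In the list of SPARC relatives and other matricellular genes, 11 of 16 were tested and none was called in any contrast without the block. With the block 4 rose and 2 fell with TNFα in control cells, and 1 rose and 2 fell in knock-down cells. For the knock-down it called 2 higher and 1 lower without TNFα and 2 higher and 2 lower with it. Among receptors and partners of CTHRC1 in Wnt signalling 9 of 14 were tested. With TNFα 0 were called in either line (1 higher and 1 lower in each with the block). With the knock-down 2 rose without TNFα and 1 with it (2 higher and 1 lower in both with the block). ROR1, a receptor for WNT5A, rose with the knock-down from 3.79 ± 0.771 to 20.6 ± 6.50 CPM without TNFα (2.44, SE 0.27, edgeR adjusted p = 0.000504) and from 2.68 ± 0.366 to 15.3 ± 4.13 with it (2.51, edgeR adjusted p = 0.000339). FZD5, a Frizzled receptor, rose without TNFα from 72.8 ± 10.0 to 124 ± 38.5 CPM (0.77, SE 0.20, edgeR adjusted p = 0.0499), and this call was lost without any 1 of 10 libraries (highest adjusted p = 0.193).

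The genes with profiles most like LOX, SPARC and CTHRC1 were found among 10998 candidates by the root mean square difference of log2 CPM over the 12 libraries, each gene centred on its mean. For LOX, whose own spread was 1.17, they were ITIH2 (0.30), PTGDR2 (0.33) and NR1H4 (0.38). ITIH2, an inter-alpha-trypsin inhibitor heavy chain, had mean levels of 212 CPM in untreated control, 117 in treated control, 696 in untreated knock-down and 475 in treated knock-down cells. SPARC (spread 0.89) was closest to TAFA5 (0.11), PPP1R1C (0.25) and TRAF5 (0.26), and TAFA5 went through 4.63, 5.31, 13.9 and 17.7 CPM in the same order of groups. For CTHRC1 (spread 1.37) the nearest were GDPD5 (0.45), SQOR (0.46) and the chemokine gene CCL20 (0.52), with GDPD5 at 11.0, 39.4, 23.4 and 83.5 CPM. CTHRC1's nearest genes lay farther away than those of the other two.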

How the data were processed

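Transcripts of 12 HepG2 libraries were analysed from the deposited table of estimated counts per gene, which were whole as deposited. The authors used CASAVA 1.7, Salmon 0.14.0 and DESeq2 with GRCh38/hg38, per the submitters' processing notes. How transcripts were summed to genes, with which annotation and strand setting, is not given in the sources used here. The authors' normalised table equals these counts divided by one factor per library and was not used.

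Counts were tested with edgeR 4.0.16 in R 4.3.3 (quasi-likelihood test, TMM factors, filterByExpr with minimum count 10 and minimum total 15), with 1 mean per group over all 12 libraries and 8 residual degrees of freedom. Adjusted p-values are Benjamini-Hochberg values over 16118 genes, with a threshold of 0.05. Each SE was derived from the edgeR test, as the absolute log2 fold change divided by the square root of the F statistic. It can be unreliable where the change is close to 0. Unless the block is named, SE and adjusted p come from fits without it. The alternatives were DESeq2 1.42.0, other scaling, no filter, a replicate block, only the groups compared, and leaving out libraries. The procedure was run on simulated counts that had neither a deviating library 1 nor pairing. That run therefore cannot show how the procedure performs where libraries deviate as they do here. Replicate libraries all differed by more than sampling noise (chi-square over its degrees of freedom 11.6 to 136).

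Libraries of equal replicate number were treated as pairs. Their deviations from the group means correlated at 0.193 to 0.695 in every pair. Correlations between libraries of unequal number are not given for comparison. Where the library of the same number deviates in each group, such values can arise without pairing of the others. The check therefore cannot show that libraries were paired by number, and results with the block or by pair take this pairing as given.

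The members and lists were chosen with earlier results of these data known. Named genes are all members, called list genes with an average log2 CPM of at least 0 (up to 4 per list and contrast, by smallest p), and the 3 nearest profiles with an average log2 CPM of at least 2. Protein sequences were not used here.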

Additional observations from a re-analysis of the deposited data

How the results depend on the processing

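LOX, SPARC and CTHRC1 moved by less than the pooled replicate SD of the groups compared under every alternative run. Leaving out 1 of 3 libraries can hardly move a group mean by that SD. Those runs could therefore hardly have failed this criterion for any of these genes. For CTHRC1 this SD was wide, since it holds the deviation of library 1, and is a weak yardstick. It was 0.93 for the knock-down without TNFα, where the value moved from 1.508 to 1.955 without DKD untreated library 1. For TNFα in knock-down cells it was 1.04, and leaving out the same library moved the value from 1.811 to 1.357. LOX and CTHRC1 kept their sign in all 198 values, while SPARC turned sign in 11 of 99, all in the TNFα contrasts or their difference. For LOXL2 to LOXL4 255 values kept direction and side of the threshold, 36 changed sign and 2 passed the threshold, the LOXL4 changes with TNFα from libraries 2 and 3 alone (0.828 in control and 0.885 in knock-down cells). LOXL2 changed sign with TNFα in control cells from libraries 2 and 3 (-0.031), and with the knock-down without both DKD libraries 1 (-0.353, and -0.614 with TNFα) or from libraries 2 and 3 (-0.381 and -0.541). LOXL3 changed sign with the replicate block (-0.099 without TNFα, -0.033 with it), and the LOXL4 contrast of TNFα changes from libraries 2 and 3 (0.057). Leaving out 1 library at a time, LOXL2 ranged from -0.016 to 0.158 and -1.348 to 0.805 with TNFα in control and knock-down cells, -0.348 to 1.207 and -0.619 to 0.778 for the knock-down without and with TNFα, and -1.429 to 0.732 for the contrast of changes. LOXL3 ranged from -0.731 to 0.135 (TNFα, knock-down cells), -0.243 to 0.486, -0.201 to 0.511 and -0.395 to 0.465 (the last 3 contrasts in the same order), and LOXL4 from -0.055 to 0.869, -0.185 to 0.824 and -0.532 to 0.472. The list count of called genes for TNFα in control cells, 4, was 9 with DESeq2, 21 with the replicate block, 12 without both DKD libraries 1 and 14 from libraries 2 and 3. In knock-down cells, 4 became 14 with the block, 2 with only the groups compared, 10 from libraries 2 and 3, and 2 to 5 leaving 1 library out. For the knock-down, 7 without TNFα became 21 with the block, 3 with only the groups compared, 12 from libraries 2 and 3, and 4 to 7, and 8 with TNFα became 23 with the block, 16 from libraries 2 and 3, and 5 to 11. The cause was not tested. LOXL2 gave no adjusted p with DESeq2 for TNFα and was filtered out with only the groups compared in 2 contrasts. Low counts limit LOXL1 to LOXL4.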
